A study of Mus musculus with 3 samples.

Results

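Barcodes in which over 10% of the captured RNA came from the mitochondrial genome were compared with the other barcodes of the same library, in mouse embryonic stem cells with and without tubercidin. A barcode marks 1 droplet, and a unique molecular identifier (UMI) counts 1 captured RNA molecule. Barcodes passed with at least 4845 UMIs in the control, 1188 after 3 h or 800 after 6 h, and with at least 500 detected genes. Of 8131 passing barcodes, 605 had a mitochondrial share over 10% and are called high below, and the other 7526 are called rest. The high barcodes were chosen by their measured mitochondrial share and UMIs, so values of either are given as a description, with no test. Barcodes of 1 library are not replicates of its condition.

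The cells were E14 mouse embryonic stem cells of a 129/Ola background, an established line, kept in medium with serum and leukaemia inhibitory factor. They received tubercidin, an adenosine analogue, at 10 uM for 3 h or 6 h, or the solvent DMSO for 6 h, and were detached with trypsin before droplet barcoding on the 10x Genomics platform. The labels place a viability stain before a freezing step, yet also say that fresh cells were barcoded, so whether the cells had been frozen is unclear. Each condition was 1 library, so no difference between conditions could be tested.

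The mitochondrial genome encodes 13 proteins of the respiratory chain and of the ATP synthase, whose mRNAs lie inside the organelle behind its membranes. Nearly all other mitochondrial proteins, and every protein of the cytosolic ribosome, are made from nuclear genes whose mRNAs are in the cytoplasm, while RNAs such as Malat1 stay in the nucleus. In droplet experiments a high mitochondrial share is widely read as a sign of a broken or stressed cell, and such barcodes are commonly removed before analysis.

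The passing barcodes held between 25275629 UMIs after 6 h and 105762480 in the control, and the high barcodes held 0.826% of them in the control, 2.85% after 3 h and 1.49% after 6 h. The high barcodes summed to 739729, 739899 and 322160 UMIs outside the mitochondrial genes, so a gene without a UMI there could stand at up to 4.06, 4.05 and 9.31 CPM (UMIs scaled to a common total of non-mitochondrial UMIs), 3 counts in each case. Doublets were kept. Each pair of libraries shared 1 passing barcode sequence and 0 high ones. All 8 stem cell markers had UMIs in every profile, with summed levels of 2533 CPM in high against 4687 in rest barcodes of the control, 3948 against 5468 after 3 h and 2589 against 4012 after 6 h. Dppa5a alone held 876 against 2633, 1861 against 3703 and 934 against 2338 CPM of these sums. Pou5f1, Utf1 and Tdh were also lower in high barcodes of each library. Esrrb, at 223 against 105, 315 against 133 and 571 against 198 CPM, and Nanog were higher in each, and Sox2 and Zfp42 went both ways. Markers of other cell types are given below, beside the genes they touch.

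High barcodes made up 93 of 2150 in the control, which is 4.33% with an exact 95% binomial interval of 3.51 to 5.27%. They made up 285 of 2629 after 3 h, which is 10.8% (9.68 to 12.1%), and 227 of 3352 after 6 h, which is 6.77% (5.94 to 7.68%). The 3 h library had the highest share and the control the lowest, and the intervals, which cover counting error only, do not overlap. Above 15% the order was the same, with 2.51%, 4.37% and 2.89%, but there the intervals of the control and of 6 h overlapped. Above 20% the 6 h library was the lowest, with 0.930%, 1.75% and 0.746%, and the interval of the control overlapped both others. With 1 library a condition and a different UMI minimum in each, the order has no replicate check. With the UMI minimum doubled, the shares were 1.81%, 8.06% and 3.40%.

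Within the high barcodes the share reached from 10.0% to 30.4% in the control, to 43.5% after 3 h and to 40.1% after 6 h, and the medians were 15.8%, 13.8% and 14.6%. The medians of the rest were 2.85%, 3.22% and 2.77%. Over 50% there were 0 barcodes, with upper exact 95% bounds of 0.171%, 0.140% and 0.110%. The threshold did not fall in a gap: between 9 and 10% lay 6, 35 and 36 barcodes, and between 10 and 11% lay 4, 41 and 24. The barcodes just outside had a median of 10365, 3308 and 2200.5 UMIs and those just inside 11105, 3372 and 1893.

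High barcodes were shallow. The median was 8456 UMIs against 48186 in the rest of the control, 2871 against 11943 after 3 h, and 1542 against 7766 after 6 h. The rest thus had 5.70, 4.16 and 5.04 times the UMIs of the high barcodes at the median. Among barcodes under 1/4 of their library's median UMIs, 57.9%, 58.5% and 42.8% were high. Between 1/4 and 1/2 of the median the shares were 28.4%, 51.1% and 22.1%. From 1/2 of the median upward, 1 of 1957, 9 of 2123 and 0 of 2668 barcodes were high, the last with an upper exact 95% bound of 0.138%.

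**Figure D1:**
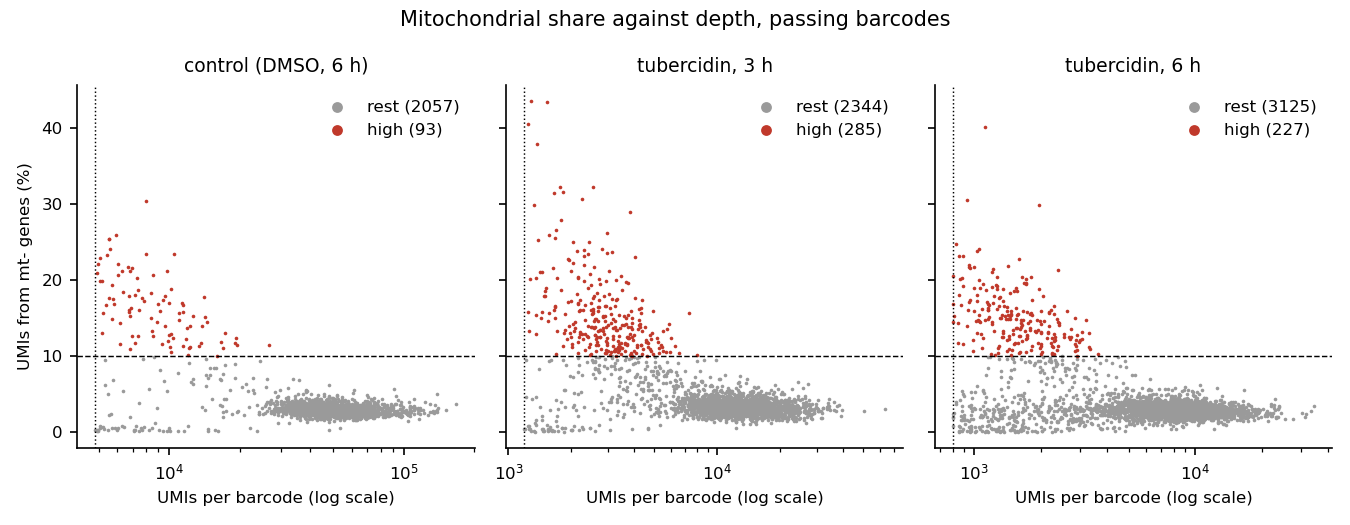
Each point is 1 passing barcode, with its UMIs on a log axis and the percent of them from mt- genes on the other axis, in 3 panels by library. The dashed line is the 10% threshold and the dotted line the UMI minimum, and the red high barcodes lie at the shallow end, with at most 26620, 7996 and 3643 UMIs.

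The amount of mitochondrial RNA per barcode hardly differed between the classes. The mean was 1443 mt- UMIs in high against 1487 in rest barcodes of the control, 445 against 414 after 3 h, and 241 against 225 after 6 h. The difference lay in the other RNA, with means of 7954 against 49504 UMIs in the control, 2596 against 12211 after 3 h and 1419 against 7743 after 6 h. Per barcode the rest therefore held 6.22, 4.70 and 5.46 times as much non-mitochondrial RNA, beside 1.03, 0.930 and 0.932 times as much mitochondrial RNA. Fewer molecules in a cell and poorer capture of its molecules cannot be told apart in these counts.

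The mix of mitochondrial mRNAs was also close to that of the rest. mt-Co3, a cytochrome c oxidase subunit, led in every profile, taking from 21.8% of mitochondrial UMIs in the rest after 3 h to 25.9% in the high class after 6 h. mt-Co1, the catalytic subunit of the same enzyme, took 13.8% against 13.7%, 15.3% against 15.5% and 14.2% against 14.3%. mt-Cytb, of complex III, took 9.81% against 10.9%, 13.8% against 14.4% and 11.1% against 11.5%. mt-Nd1, of complex I, took 6.72% against 7.99%, 6.02% against 6.28% and 6.44% against 7.58%. mt-Nd1 and mt-Cytb were thus a smaller part of the mitochondrial RNA of high barcodes in each library. The largest relative difference in the control and after 3 h was at mt-Atp8, an ATP synthase subunit, with 0.631% against 0.425%, 0.586% against 0.458% and 0.542% against 0.423%. At 6 h mt-Nd6 differed more, with 0.124% against 0.0952%.

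The other genes were compared between high and rest barcodes on UMIs summed over each class and scaled to CPM without the mt- genes, so that the mitochondrial share itself does not lower them. A log2 ratio below is that of CPM + 1. Tested were the 4040 genes whose 6 sums averaged 50 CPM or more. A gene averaging under 50 CPM in the rest passed only through its high sums, and the reverse. For such genes the filter itself partly set the direction. At least 2-fold higher in high barcodes were 1386 genes in the control (34.3%), 1750 after 3 h (43.3%) and 1454 after 6 h (36.0%). At least 2-fold lower were 517 (12.8%), 266 (6.58%) and 419 (10.4%). In all 3 libraries 1042 genes were past 2-fold higher (25.8%) and 182 past 2-fold lower (4.50%), and 1 gene was past 2-fold in opposite directions.

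Treating the 3 libraries as 3 pairs, edgeR's quasi-likelihood test with the library as a block called 2262 genes higher (56.0%) and 783 lower (19.4%) at an adjusted p under 0.05, so 75.4% of all tested genes were called. The pairs differ in treatment, so the test asks what the 3 libraries share. Counts of called genes in each list below are to be read beside the 56.0% called higher and 19.4% called lower. The log2 ratios of the 4040 genes correlated between libraries, with Pearson's r of 0.83 between control and 3 h, 0.90 between control and 6 h and 0.89 between 3 h and 6 h. This is across genes, which are not independent replicates, and each library's high and rest barcodes were processed together.

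The balance of higher and lower calls, and which genes were called, depended on the scaling. The balance also moved with the filter, as 63.8% of edgeR calls were higher among genes averaging at least 100 CPM. The median log2 ratio of all tested genes was 0.46 in the control, 0.85 after 3 h and 0.63 after 6 h. TMM factors lowered these medians by 0.50, 0.68 and 0.52, and gave 1528 genes higher and 1368 lower by edgeR, so that 52.8% of calls were higher in place of 74.3%. The 2 scalings shared 2311 calls, of which 0 were in opposite directions. Of the 3045 genes called without factors, 2932 kept the direction of their ratio with TMM factors (96.3%), and the others turned.

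The mRNAs of the cytosolic ribosome formed the largest group among the low genes. All 79 tested ribosomal protein genes were called lower (edgeR), against 19.4% of all genes, and 62 of them were past 2-fold lower in all 3 libraries. The median log2 ratios were -1.49, -1.59 and -1.65. Together these mRNAs took 9.06% of non-mitochondrial UMIs in high against 24.3% in rest barcodes of the control, 11.2% against 31.1% after 3 h and 9.24% against 26.8% after 6 h. The same mRNAs made up 18.1%, 36.7% and 24.1% of the free RNA, measured in barcodes far below the UMI minimum, with a median of 343, 210 and 138 UMIs, above the high barcodes in each library. Per barcode the rest held a mean of 12023 UMIs and the high class 721 in the control, 3799 and 292 after 3 h, and 2077 and 131 after 6 h, which is 16.7, 13.0 and 15.8 times less.

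Rps12, a protein of the small ribosomal subunit (chr10:23785183-23787275, minus strand, GRCm38), stood at 1132 CPM in high against 5137 in rest barcodes of the control, 1735 against 7315 after 3 h and 1369 against 6846 after 6 h. The high value was the lower in each library, and the fitted log2 ratio was -2.19 ± 0.13 (SE, 3 pairs, edgeR adjusted p = 1.84e-05). Rpl32, of the large subunit, stood at 1218 against 5026, 1346 against 5939 and 1009 against 4775 CPM. The least affected tested member was Rpl18, at 2067 against 3045, 2822 against 4149 and 2486 against 3176 CPM (edgeR adjusted p = 0.00549), and it was not called at matched depth (edgeR adjusted p = 0.392) or without the library block (0.0654). Ribosomal protein genes have many processed pseudogenes, and how reads that match several copies were counted is not given in the sources used here.

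Other short, abundant mRNAs of the cytoplasm were low as well. Of 38 translation factors, 21 were called lower and 6 higher (edgeR), with medians of -0.62, -0.65 and -0.58, where all genes had 0.46, 0.85 and 0.63. Eef1a1, which brings aminoacyl-tRNA to the ribosome, stood at 2901 against 5827, 1618 against 5699 and 1838 against 4509 CPM. Eif4a2, a helicase of initiation, was the highest member, at 273 against 128, 237 against 118 and 245 against 96.3 CPM, but 238 against 258 CPM after 3 h at matched depth, where its call was lost (edgeR adjusted p = 0.0793). Of 26 genes of actin and tubulin, 17 were called lower and 2 higher, with medians of -0.75, -0.71 and -0.93. Pfn1, the actin-binding profilin, was at 157 against 614, 75.7 against 287 and 46.6 against 183 CPM. Actn1, an actinin that cross-links actin, was called higher, at 204 against 104, 158 against 90.2 and 180 against 103 CPM, but not with TMM or median-of-ratios factors or with DESeq2 (adjusted p from 0.140 to 0.209).

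Genes of glycolysis were called in both directions. Of 15 tested, 9 were called lower, all of them enzymes, and 4 higher, which were the glucose transporters Slc2a1 and Slc2a3, the kinase Hk2 that traps glucose, and Pfkp. The median over the list was -0.71 in the control, -0.54 after 3 h and -0.55 after 6 h. Gapdh (chr6:125161715-125166467, minus strand), which was the lowest, stood at 894 CPM in high against 2473 in rest barcodes of the control, 1176 against 4650 after 3 h and 941 against 3250 after 6 h (edgeR log2 ratio -1.75 ± 0.15 SE, adjusted p = 3.63e-05). Hk2 stood at 360 against 280, 508 against 140 and 698 against 222 CPM, a small difference in the control and a larger one in both treated libraries. The difference of Hk2 between libraries was not tested. Of 31 proteasome subunits, 19 were called lower and 1, Psmd1, higher, and the direction of Psmd1 turned with TMM factors. Glycolysis, proteasome and actin lists were thus below the median of all genes in each library, but at matched depth their medians after 3 h were -0.12, -0.07 and -0.22, beside 0.17 for all genes.

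The nuclear genes that serve the mitochondrion were mostly called lower in high barcodes. Of 75 nuclear-encoded genes of the respiratory chain and ATP synthase, 58 were called lower and 4 higher (edgeR), against 19.4% and 56.0% of all genes. The medians were -0.94, -0.80 and -0.88, beside 0.46, 0.85 and 0.63 for all genes. As a share of non-mitochondrial UMIs they took 1.69% in high against 2.97% in rest barcodes of the control, 2.26% against 3.30% after 3 h and 2.13% against 3.36% after 6 h. Per barcode the rest held 10.9, 6.87 and 8.62 times as many of these UMIs, beside 6.22, 4.70 and 5.46 times as many for all genes without mt- genes. The mt- UMIs for subunits of the same complexes were nearly equal in number. As the rule chose barcodes by the mt- share, those numbers give no baseline. Atp5e, the epsilon subunit of the ATP synthase (chr2:174461072-174464105, minus strand), was the lowest, at 157 against 690, 135 against 663 and 171 against 849 CPM (edgeR log2 ratio -2.25 ± 0.18 SE, adjusted p = 3.17e-05). The 4 called higher were Ndufs1, Ndufs4, Sdha and Cox6a1. Ndufs1, an iron-sulfur subunit of complex I, was the highest, at 165 against 109, 162 against 83.7 and 143 against 95.8 CPM, but its call was lost at matched depth, with TMM or median-of-ratios factors and with DESeq2 (adjusted p from 0.294 to 0.560).

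Of 58 mitochondrial ribosomal protein genes, 41 were called lower and 2 higher, against 19.4% and 56.0% of all genes, with medians of -1.03, -0.50 and -0.91. At matched depth the median after 3 h was -0.16, beside 0.17 for all genes. Mrpl58, the lowest, was at 46.0 against 102, 40.5 against 112 and 12.4 against 115 CPM, the last from 4 UMIs. Of 30 genes for import, chaperones and upkeep of the mitochondrial genome, 18 were called lower and 2 higher, with medians of -0.90, -0.35 and -0.62. Their median after 3 h was -0.02 at matched depth. Tomm22, a receptor of the import pore, was at 71.6 against 153, 56.8 against 108 and 12.4 against 101 CPM, the last also from 4 UMIs. Lonp1, a protease of the matrix, was called higher, at 107 against 55.3, 89.2 against 53.2 and 83.8 against 53.4 CPM. Its call was lost at matched depth, with TMM or median-of-ratios factors, with DESeq2 and with a mitochondrial threshold of 15% (edgeR or DESeq2 adjusted p from 0.133 to 0.430).

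**Figure D2:**
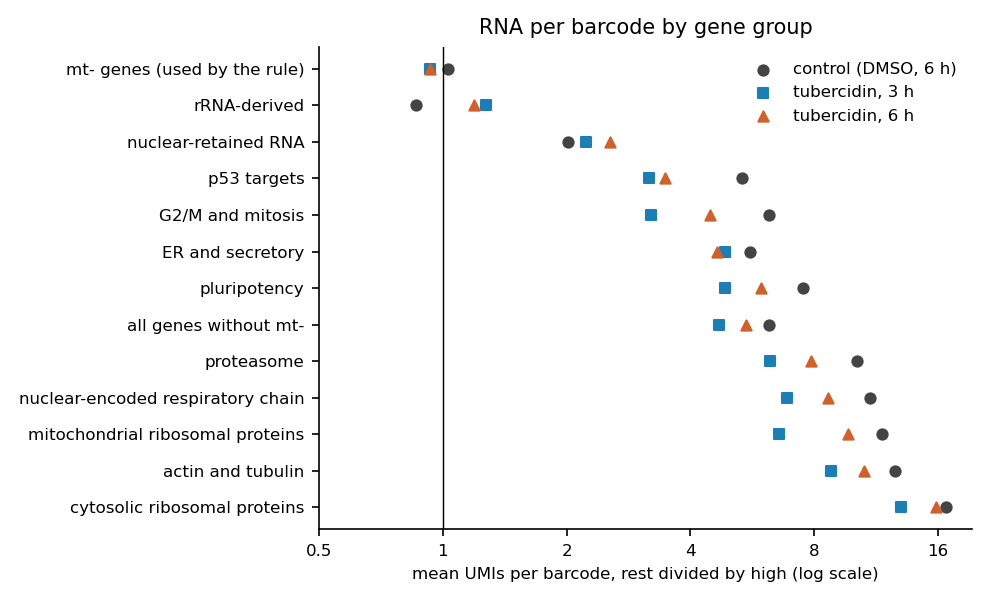
Each point is the mean number of UMIs per barcode in the rest divided by that in the high barcodes, for 1 gene group and 1 library, on a log axis, with a line at 1. The mt- genes, which the rule used, lie at 0.930 to 1.03, the nuclear-retained RNAs at 2.02 to 2.56 and the cytosolic ribosomal proteins at 13.0 to 16.7.

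The RNAs of a list named here nuclear-retained were a larger part of the RNA of high barcodes. The list also holds hosts of small nucleolar RNAs such as Gas5, and where each RNA lies in the cell was not measured. All 11 tested members were called higher (edgeR), against 56.0% of all genes, and 6 were past 2-fold in all 3 libraries. The medians were 1.61, 1.17 and 1.20. Malat1, an RNA of the nuclear speckles (chr19:5795690-5802672, minus strand), stood at 10619 CPM in high against 3248 in rest barcodes of the control, 7700 against 3701 after 3 h and 5019 against 2397 after 6 h. The high class was above the rest in each library, with a fitted log2 ratio of 1.28 ± 0.15 (SE, 3 pairs, edgeR adjusted p = 4.71e-05). Free RNA held Malat1 at 3224, 3818 and 1955 CPM, near the level of the rest.

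Neat1, the RNA around which paraspeckles form, was at 205 against 74.3, 295 against 105 and 298 against 123 CPM. Firre, an X-linked RNA that stays at chromatin, was the highest member of the list, at 96.0 against 27.8, 86.5 against 23.3 and 77.6 against 21.3 CPM. Gas5, a host of small nucleolar RNAs, was the lowest, at 278 against 256, 414 against 274 and 332 against 197 CPM, and its direction turned with TMM factors. Gas5 lost its call at matched depth as well (edgeR adjusted p = 0.379). Per barcode the rest held 1.90, 2.26 and 2.61 times as many Malat1 UMIs as the high class, and 2.25, 1.67 and 2.26 times as many Neat1 UMIs. Both were thus fewer per barcode in the high class too, but less so than the 4.70 to 6.22 times of all non-mitochondrial RNA.

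Genes that carry ribosomal RNA sequence had the highest list median. Gm42418, AY036118, Gm26917 and Lars2 lie over or resemble ribosomal RNA repeats, so their reads may come from ribosomal RNA and cannot be assigned with certainty. Their sum was 2.00% of non-mitochondrial UMIs in high against 0.277% in rest barcodes of the control, 2.16% against 0.585% after 3 h and 2.45% against 0.535% after 6 h. AY036118 (chr17:39847113-39848035, minus strand) had the largest ratio of all named genes, at 837 against 72.2, 1293 against 172 and 2331 against 326 CPM (edgeR log2 ratio 3.09 ± 0.20 SE, adjusted p = 1.84e-05). Per barcode its mean was 6.66 UMIs in high against 3.57 in rest barcodes of the control, 3.36 against 2.10 after 3 h and 3.31 against 2.52 after 6 h. Among the named nuclear-encoded genes, AY036118 and Filip1l had more UMIs per high than per rest barcode in all 3 libraries.

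The 4 genes made up 15.985%, 3.75% and 14.0% of the free RNA, more than in either class, with the lowest share after 3 h. With the free RNA of a median empty barcode subtracted from each barcode, the list's median log2 ratios were 2.87, 2.00 and 1.95, beside 2.73, 1.94 and 2.12 without it. Against rest barcodes weighted to the depth of the high ones, they were 1.05, -0.26 and 0.75, so the group did not stand above all genes after 3 h in that comparison. The part of free RNA in the remaining difference was not tested.

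Camk1d, a calcium-dependent kinase with a span of 421059 bases, shared this behaviour. It stood at 2059 CPM in high against 296 in rest barcodes of the control, 878 against 220 after 3 h and 3517 against 734 after 6 h. Its level in the free RNA was 27248, 4117 and 33166 CPM, and its mean per barcode was nearly equal in the classes, at 16.4 against 14.7, 2.28 against 2.69 and 4.99 against 5.69 UMIs. After subtraction of free RNA the log2 ratios of Camk1d were 3.06, 1.96 and 1.29, and against rest barcodes of matched depth 0.68, -0.27 and 0.58, where the call was lost (edgeR adjusted p = 0.362).

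The other genes with the highest mean ratios were Filip1l, Lrrc4, Lars2, Pald1, Slc16a4, Il12rb2, Lcorl and Slc12a2. Filip1l, at 66.2 against 9.94, 77.0 against 10.8 and 158 against 26.3 CPM, stood at 32.6, 29.9 and 46.0 CPM in the free RNA, below the high class. Lrrc4, a synaptic adhesion protein, was at 73.0 against 15.2, 79.7 against 17.9 and 223 against 39.0 CPM, with 9.26, 7.11 and 15.1 CPM in the free RNA. Slc12a2, a sodium, potassium and chloride cotransporter, was at 96.0 against 23.8, 86.5 against 20.96 and 96.2 against 24.7 CPM. The high values of Filip1l, Lrrc4 and Slc12a2 lie above both the rest and the free RNA in each library. Sfmbt2, a polycomb protein, was among the highest in the control alone, at 242 against 26.0 CPM there, 23.0 against 18.0 after 3 h and 43.5 against 18.7 after 6 h, and that difference between libraries was not tested. Sfmbt2 was not called by DESeq2 (adjusted p = 0.285).

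Il12rb2, an interleukin receptor subunit, and Slc16a4, a carrier of the monocarboxylate family, differed with treatment in both classes. Il12rb2 stood at 6.76 CPM in high against 1.82 in rest barcodes of the control, 58.1 against 14.1 after 3 h and 196 against 30.7 after 6 h. Slc16a4 stood at 18.9 against 4.59, 66.2 against 17.6 and 183 against 31.1 CPM. Mcmdc2, related to the replicative helicase, behaved alike, at 6.76 against 1.55, 112 against 30.8 and 220 against 45.0 CPM. For these genes the level was higher after 3 h than in the control and highest after 6 h in both classes, and the high sum was the higher in each library. The control values of Il12rb2 and Mcmdc2 in high barcodes rest on 5 UMIs each.

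Longer genes had higher ratios in each library, but after 3 h the climb was much smaller at matched depth. Among 4039 tested genes with an entry in GENCODE M21, cut into 5 bins by the span from start to end, the median log2 ratio in the control was -0.96 in the shortest bin, then -0.16, 0.41, 1.05, and 1.54 in the longest. At 3 h the medians were -0.57, 0.34, 0.86, 1.24 and 1.37, and after 6 h -0.86, 0.02, 0.62, 1.14 and 1.38. In the shortest bin, up to 10.2 kb, 48 of 808 genes were called higher and 527 lower (edgeR). In the longest bin, from 89.4 kb, 777 of 808 were called higher and 5 lower.

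Genes past 2-fold higher in all 3 libraries had a median span of 95.1 kb and 18 exons, and those past 2-fold lower 3.93 kb and 5 exons, beside 32.2 kb and 11 exons for all tested genes. Spearman's rho between span and log2 ratio across the 4039 genes was 0.79 in the control, 0.70 after 3 h and 0.74 after 6 h. With the summed exon length it was 0.67, 0.67 and 0.65. The genes are not independent replicates. Span also differed within genes of like exon length: in the middle of 3 bins of exon length, the shorter spans had a median of 0.05 and the longer ones 1.04 in the control, 0.49 and 1.14 after 3 h, and 0.23 and 1.04 after 6 h. Against rest barcodes weighted to the depth of the high ones, the medians from the shortest to the longest bin were -0.96, -0.15, 0.58, 1.13 and 1.46 in the control and -0.74, 0.05, 0.54, 0.91 and 1.06 after 6 h. After 3 h they were -0.13, 0.14, 0.23, 0.27 and 0.21, so most of the climb was lost there. The weighted rest of 3 h can draw on shallow barcodes of unlike content, described below, and their part in this was not tested. Whether reads in introns were counted is not given in the sources used here, and it bears on these values.

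**Figure D3:**
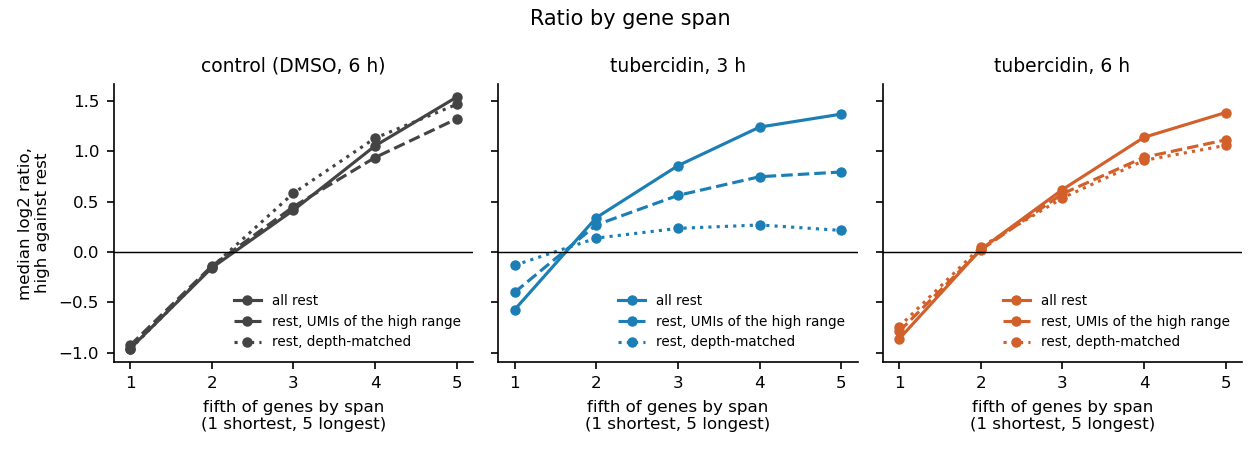
The median log2 ratio of high against rest is plotted for 5 bins of genes from short to long span, in 3 panels by library. Solid lines use all rest barcodes, dashed lines only those with UMIs in the range of the high ones, and dotted lines rest barcodes weighted to their depth. The dotted line after 3 h runs from -0.13 to 0.21, while the other lines end at 0.79 or more.

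Genes of the stem cell state were spread over both directions. Of 20 pluripotency genes, 8 were called higher, 3 lower and 9 were not called (edgeR), with medians of 0.10, 0.73 and 0.15, below the 0.46, 0.85 and 0.63 of all genes. With TMM factors the list's median over libraries turned from 0.22 to -0.35. Pou5f1, a central pluripotency factor also called Oct4, was called lower, at 112 against 142, 68.9 against 166 and 55.9 against 220 CPM (edgeR adjusted p = 0.00431). Dppa5a, a short transcript of these cells, was the lowest, at 876 against 2633, 1861 against 3703 and 934 against 2338 CPM. Tet1, which oxidises methylated cytosine in DNA, was the highest, at 1217 against 425, 635 against 226 and 919 against 330 CPM.

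Sox2 and Nanog, the partners of Pou5f1, were not called. Sox2 was at 161 against 211, 71.6 against 83.5 and 86.9 against 83.1 CPM, and Nanog at 82.5 against 79.6, 107 against 63.8 and 65.2 against 51.4 CPM. Their directions turned between libraries or with the scaling, and Sox2 was called lower with TMM factors (edgeR adjusted p = 0.000631). Klf2, a factor of the naive state, was at 127 against 237 CPM in the control, 258 against 90.2 after 3 h and 40.4 against 40.4 after 6 h, and was not called. At 3 h alone the high barcodes held more Klf2 than the rest.

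The p53 targets were called higher in 9 of 12 and lower in 1 (edgeR), with medians of 0.80, 1.13 and 1.19, beside 56.0% called higher and medians of 0.46, 0.85 and 0.63 for all genes. At matched depth the list was at 0.34 after 3 h and all genes at 0.17. The median over libraries stayed above 0 with TMM factors, at 0.50. Mdm2, the ligase that degrades p53, stood at 145 against 87.8, 251 against 90.7 and 776 against 250 CPM. Eda2r, a death-domain receptor, was the highest at 82.5 against 19.7, 73.0 against 33.8 and 140 against 52.4 CPM. Neither call held against rest barcodes of matched depth, where Mdm2 stood at 252 against 252 CPM and Eda2r at 73.5 against 72.1 CPM after 3 h (edgeR adjusted p = 0.148 and 0.123). The exception was Bax, which permeabilises the outer mitochondrial membrane, at 224 against 484, 220 against 494 and 130 against 542 CPM. Cdkn1a, the p21 inhibitor of the cell cycle, was under the filter, at 10.8 against 15.8, 18.9 against 9.54 and 52.8 against 22.9 CPM, and its control value rests on 8 UMIs.

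The apoptosis list had calls in both directions, beside 56.0% of all tested genes called higher and 19.4% lower. Of 9 tested genes, Cycs (cytochrome c, which is lost from mitochondria in apoptosis), Bax and Birc5 were called lower, and Apaf1, Xiap, Bcl2l1 and Aifm1 higher. Cycs was at 70.3 against 244, 98.7 against 274 and 74.5 against 249 CPM. Apaf1, the scaffold of the apoptosome, was at 56.8 against 19.5, 68.9 against 23.7 and 192 against 68.2 CPM. Against rest barcodes of matched depth the direction of Apaf1 turned after 3 h, with 69.4 against 89.9 CPM, and its call was lost (edgeR adjusted p = 0.0728). These are RNA levels and say nothing of the proteins. The list's medians were -0.20, 0.95 and 0.60, beside 0.46, 0.85 and 0.63 for all genes. Its median over libraries turned from 0.53 to -0.04 with TMM factors.

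Stress lists had calls in both directions, beside 56.0% of all tested genes called higher and 19.4% lower. The medians were -0.38, -0.0092 and -0.15 for the integrated stress response and -0.51, 0.46 and -0.23 for heat shock. Immediate-early genes were at 0.02, 0.84 and 0.53, and all genes at 0.46, 0.85 and 0.63. Of 12 genes of the integrated stress response, 2 were called higher and 4 lower. Slc7a5, an amino acid transporter, was the highest, at 135 against 56.9, 55.4 against 36.3 and 80.7 against 28.9 CPM, and was not called by DESeq2 (adjusted p = 0.0697). Of 14 cytosolic heat shock chaperones, 1 was called higher, Hsph1, whose direction turned with TMM factors, and 4 lower. Hspb1 was the lowest, at 446 against 1332, 1360 against 1710 and 804 against 1662 CPM, but 1365 against 1223 CPM after 3 h at matched depth. Of 6 immediate-early genes, 3 were called higher and 1, Jund, lower, which was not called at matched depth (edgeR adjusted p = 0.108).

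The endoplasmic reticulum list split as well. Of 25 genes, 10 were called higher and 6 lower (edgeR), with medians of 0.35, 0.07 and 0.43, beside 56.0% and 19.4% of all genes called and medians of 0.46, 0.85 and 0.63. Canx, a membrane-bound chaperone of glycoprotein folding, was the highest, at 547 against 245, 451 against 233 and 760 against 352 CPM. Sec61b, a small subunit of the translocon, was the lowest, at 204 against 435, 146 against 423 and 130 against 386 CPM. With TMM factors the list's median turned from 0.39 to -0.18. Of 8 tested cholesterol genes, 7 were called higher and Fdps lower, with medians of 0.93, 1.01 and 1.05. At matched depth their median after 3 h was 0.27, and Fdps was not called (edgeR adjusted p = 0.322).

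The calls of cell cycle genes are read beside the 56.0% of all tested genes called higher and the 19.4% called lower. Of 35 S-phase genes 12 were called higher and 1, Rfc2, lower, which was not called at matched depth (edgeR adjusted p = 0.338), and of 50 G2/M genes 29 were called higher and 5 lower. The medians were 0.05, 0.75 and 0.29 for S-phase and 0.20, 0.93 and 0.62 for G2/M genes, beside 0.46, 0.85 and 0.63 for all genes. Pola1, a DNA polymerase subunit, was at 645 against 209, 470 against 183 and 531 against 209 CPM, but 465 against 500 CPM after 3 h at matched depth. Ube2c, a short mitotic transcript, was at 111 against 330, 105 against 295 and 77.6 against 180 CPM. The tested replication-dependent histone genes, whose mRNAs normally lack a poly(A) tail, were called lower in 5 of 7, with medians of -2.17, -0.37 and -2.06. The 3 h library stood apart there. These genes took 0.0733% of non-mitochondrial UMIs in high against 0.0800% in rest barcodes after 3 h. The shares were 0.0661% against 0.263% in the control and 0.0354% against 0.110% after 6 h. Of 39 splicing genes, 12 were called higher and 4 lower, beside those same shares of all genes. The median of the splicing list turned from 0.22 to -0.35 with TMM factors, and that of the S-phase list from 0.32 to -0.25.

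**Figure D4:**
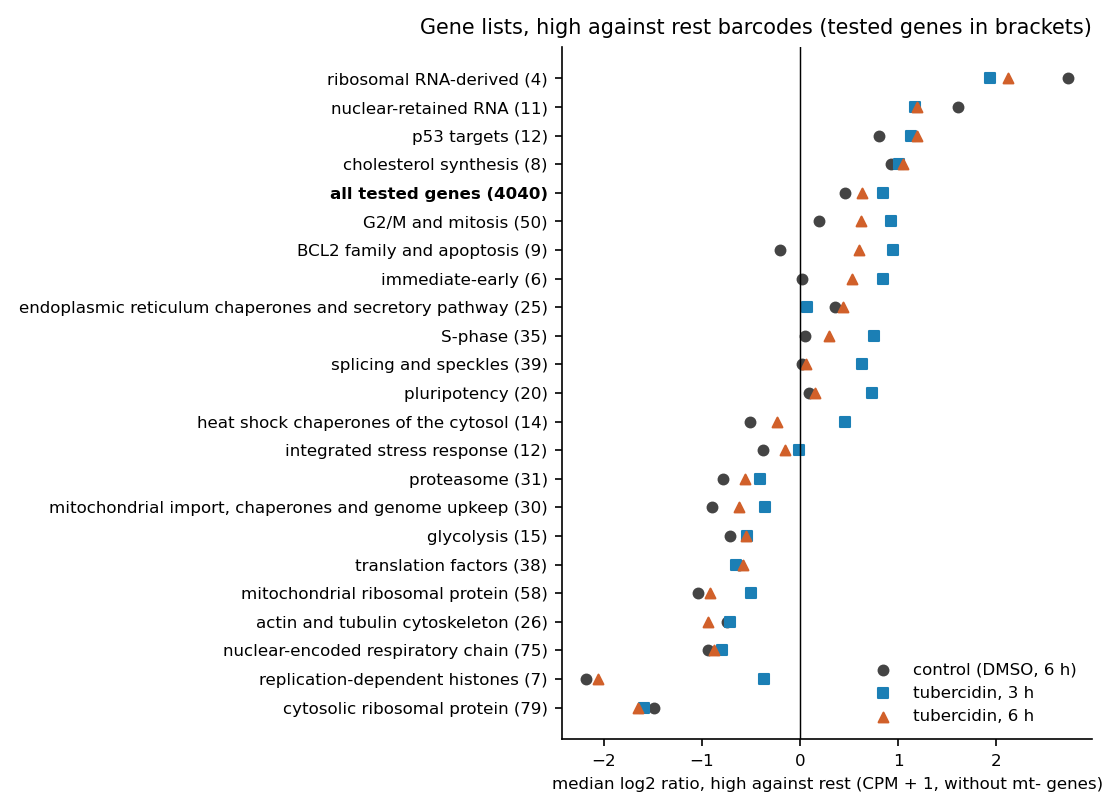
The median log2 ratio of high against rest is shown for each gene list with 4 or more tested genes, with 1 symbol per library and the number of tested genes in brackets. Cytosolic ribosomal proteins lie at -1.49 to -1.65, all tested genes at 0.46 to 0.85, and the ribosomal RNA-derived genes highest, at 1.94 to 2.73.

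Markers of other cell types were few. Of 13 markers of 2-cell-like cells and 12 of blood cells, at most 1 had a UMI in any high sum. Their summed levels in the rest, of at most 1.41 and 3.35 CPM, were under the 4.05 CPM or more that 3 counts give in the high sums. Of 14 fibroblast markers, 5 to 7 had UMIs, with Col1a2 and Col3a1 at 0 in all 3 high sums, and the summed level of 235, 158 and 202 CPM came mostly from Fn1, a matrix protein, at 219, 134 and 158 CPM. Summed primitive endoderm markers were at 664 against 278, 365 against 241 and 649 against 264 CPM, and Lamc1, a laminin chain, held 342, 153 and 230 CPM of the high sums. The laminin chains Lama1 and Lamb1 were higher as well. Lama1 was at 111 against 35.9, 107 against 38.2 and 165 against 48.3 CPM, and Lamb1 at 51.4 against 16.6, 31.1 against 13.1 and 71.4 against 17.1 CPM. Sparc was lower after 3 h, at 47.3 against 122 CPM, and higher in the control and after 6 h. Sox17 and Foxa2 were at 0 in each high sum. Summed trophoblast markers were at 17.6 against 18.9, 31.1 against 14.3 and 43.5 against 18.6 CPM, with Cdx2, Hand1 and Krt7 at 0 in each high sum. The markers named here as 0 were at no more than 0.413 CPM in the rest. That is under the 4.05 to 9.31 CPM of 3 counts in the high sums, so their zeros cannot tell the classes apart. Fn1 and Lamc1, with spans of 67681 and 113865 bases, were called higher.

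Within the passing barcodes the levels differed by bin of the mitochondrial share, which the rule used. In the control the ribosomal protein share of non-mitochondrial UMIs was 24.3% at a mitochondrial share of up to 5%, 20.9% at 5 to 10%, 10.1% at 10 to 15%, 7.67% at 15 to 20% and 8.10% above. At 3 h it was 31.5%, 24.8%, 10.7%, 11.5% and 14.1%, and after 6 h 27.0%, 18.3%, 9.34%, 8.82% and 9.79%. In each library the largest step lay between the bins of 5 to 10% and 10 to 15%, but after 6 h the step before it was nearly as large. Median UMIs fell over the same bins, from 48567.5 to 6174.5 in the control, from 12294 to 2032 after 3 h and from 7890 to 1048 after 6 h. The part of depth in these steps was not tested. Malat1 was highest at 15 to 20% in the control, at 12193 CPM, and at 10 to 15% in the treated libraries, at 8438 and 5560 CPM. The ribosomal RNA-derived genes were higher in each further bin, up to 3.97% after 6 h in the 25 barcodes above 20%.

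**Figure D5:**
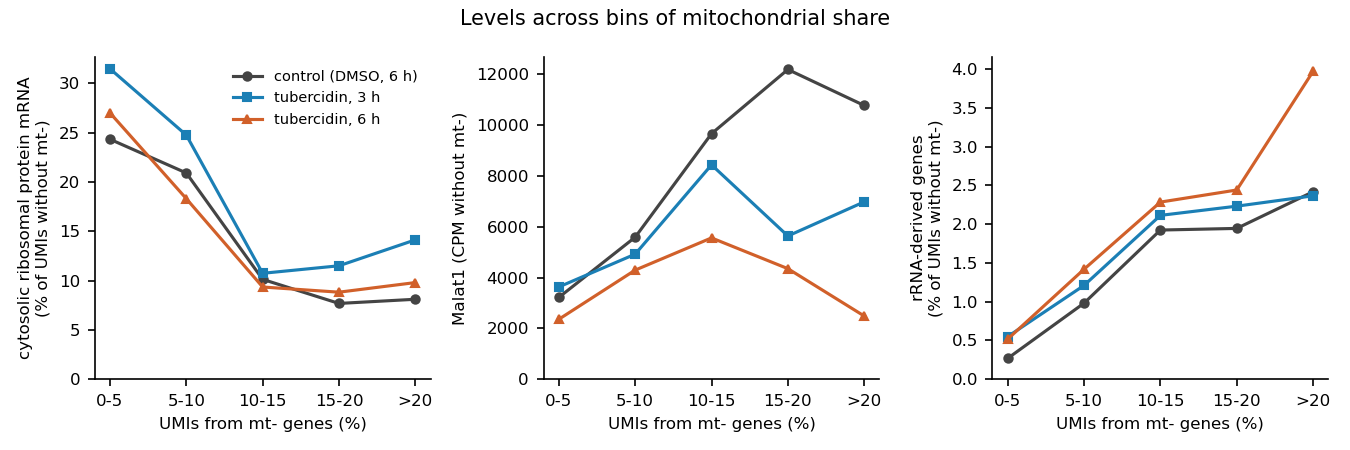
Ribosomal protein mRNA, Malat1 and the ribosomal RNA-derived genes are plotted over 5 bins of the mitochondrial share of a barcode, 1 line per library. Ribosomal protein mRNA drops between the bins of 5 to 10% and 10 to 15%, from 20.9% to 10.1% in the control, and the bins above 20% hold 20, 46 and 25 barcodes. Median UMIs fall over the bins as well.

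Rest barcodes in the UMI range of the high ones were a mixture, in depth as well. Within the UMI range of the high barcodes, the control had 41 rest barcodes with a mitochondrial share of at most 1%, 31 with 1 to 4% and 43 with 4 to 10%. The numbers were 43, 153 and 203 after 3 h, and 83, 236 and 129 after 6 h. Median UMIs in these bins were 7459, 19679 and 14918 in the control, beside 8456 in the high class. They were 1699, 6702 and 4694 after 3 h, beside 2871, and 1324, 2136.5 and 2139 after 6 h, beside 1542. The bins thus share a UMI range with the high class but not its depth. Ribosomal protein mRNA took 30.3%, 25.3% and 18.0% in these bins of the control, 19.3%, 31.7% and 21.7% after 3 h, and 28.8%, 29.6% and 14.8% after 6 h. All are above the 9.06%, 11.2% and 9.24% of the high barcodes. Malat1 stood at 652, 3016 and 6510 CPM in the control, beside 10619 in the high. At 3 h the bin of at most 1% was at 8780 CPM, above the 7700 of the high. That bin also held 5.52% ribosomal RNA-derived UMIs and 2003 CPM of Camk1d, beside 2.16% and 878 CPM in the high. The shallow barcodes of the 3 h library thus held much Malat1 at both ends of the mitochondrial share.

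Depth moved some values. Against rest barcodes in the UMI range of the high ones, edgeR called 2236 genes higher and 717 lower of 4142, and 187 and 116 genes were past 2-fold higher and lower in all 3 libraries, in place of 1042 and 182. Against rest barcodes weighted to the UMIs of the high ones, the calls were 1147 higher and 371 lower of 4178, with 12 and 29 past 2-fold in all 3 libraries. The weighted rest came to an effective 71.7, 181.9 and 313.5 barcodes, and 4, 6 and 13 high barcodes without a match were left out. Weights of at most 1 made the rest counts smaller, and the part of this in lost calls was not tested. The loss was after 3 h, where 40 and 37 genes were past 2-fold. Of the 3015 genes called with all rest barcodes that entered this fit, 3012 kept their direction. In that comparison the ribosomal protein medians were -1.52, -0.79 and -1.56, those of the respiratory chain -0.94, -0.20 and -0.71, and those of the nuclear-retained RNAs 1.60, 0.57 and 1.00. Rps12 stood at 1134 against 5398, 1724 against 4178 and 1362 against 6130 CPM.

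At an equal number of UMIs the high barcodes showed more different genes. Drawing 500 non-mitochondrial UMIs from each barcode, the median was 443 genes in high against 391 in rest barcodes of the control, 430 against 357 after 3 h and 436 against 375 after 6 h, and 0 barcodes were too shallow. Without thinning the order was the other way, with 3572 against 7072, 1600 against 3299.5 and 1013 against 2729 genes. The ribosomal protein mRNAs, a few abundant transcripts, took a smaller share of the RNA in the high class. Their part in the higher gene number was not tested.

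Across libraries, each treated library was set against the control within each class, with no test. In high barcodes 254 genes were at least 2-fold higher (6.29%) and 343 lower (8.49%) after 3 h, and 178 (4.41%) and 236 (5.84%) after 6 h. In rest barcodes 29 were higher (0.718%) and 164 lower (4.06%) after 3 h, and 69 (1.71%) and 100 (2.48%) after 6 h. The high sums hold far fewer UMIs, and both comparisons share the control library, so the counts do not compare the classes. Mdm2 differed from the control by a log2 ratio of 0.79 in high and 0.05 in rest barcodes after 3 h, and by 2.42 and 1.497 after 6 h. Malat1 differed by -0.46 and 0.19 after 3 h and by -1.08 and -0.44 after 6 h. Rps12 differed by 0.62 and 0.51 after 3 h and by 0.27 and 0.41 after 6 h. Whether high and rest barcodes differ in these responses was not tested.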

How the data were processed

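The authors deposited raw UMI counts per gene and barcode for 3 libraries, listing 32285 genes and 3237014 barcodes. The file headers name Cell Ranger 7.1.0 and the submitters' processing notes mm10; annotation release and intron counting are not given in the sources used here. Counts were summed over high and over rest barcodes of a library and scaled to CPM without the 13 mt- genes. edgeR 4.0.16 (R 4.3.3) tested these 6 sums with the library as a block, with Benjamini-Hochberg adjustment over the 4040 genes averaging 50 CPM or more. High and rest sums of a library share its culture and run, which is the pairing. No label says that conditions had independent cultures. The p-values set the difference of high and rest against its variation between 3 libraries of unlike treatment.

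Named genes were the 10 highest and 10 lowest mean ratios among genes past 2-fold in all 3 libraries, the 3 highest and lowest in each library, the ends of each of 28 lists, all mt- genes, and Malat1, Neat1, Pou5f1, Sox2, Nanog, Mdm2, Cdkn1a, Actb, Gapdh, Eef1a1, Klf2 and Mcmdc2. Predicted genes were left out, 1 list end is not reported here, and other names were chosen after their values were seen. Members and lists were chosen with earlier results of these data known. Identifiers matched GENCODE M21 (GRCm38) for 32158 genes. The edgeR test was also run on simulated sums, where it recovered 92.2% of log2 changes of 1 and 100% of those of 2. It called 0.236% of unchanged genes. Few genes were altered there, balanced in direction, so the simulation does not cover the broad shift and the dependence on scaling of the real data. Other software was Python 3.11.15 with scipy 1.17.1, pandas 2.3.3, numpy 2.4.6 and matplotlib 3.10.9, and DESeq2 1.42.0 for an alternative. Intervals cover counting error only.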

Additional observations from a re-analysis of the deposited data

Results flagged for a closer look

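Klf2 and Sparc moved in opposite directions in different libraries. Klf2, high against rest, had a log2 ratio of -0.89 in the control (exact conditional binomial 95% interval, without the pseudocount, -1.21 to -0.61), 1.51 after 3 h (1.30 to 1.73) and -0.0023 after 6 h (-0.92 to 0.78). Sparc, a secreted matrix protein on the list of primitive endoderm markers, had 0.24 in the control (-0.06 to 0.53), -1.35 after 3 h (-1.89 to -0.89) and 0.58 after 6 h (0.13 to 1.00). With 1 library per condition the difference between libraries was not tested. Against rest barcodes of matched depth, Klf2 was at -0.76, 1.16 and 0.07 and Sparc at 0.65, -1.37 and 0.65, so both kept the split between 3 h and the control.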

How the results depend on the processing

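The ribosomal protein list stayed lower and the nuclear-retained and ribosomal RNA-derived lists higher in the median over libraries under every alternative run. No call of the fit reported above was called in the opposite direction under an alternative. Ratios did turn without an opposite call. Of 3045 calls, 2932 kept their direction with TMM factors, and 2926 with median-of-ratios factors and with DESeq2. Values are given in the order control, 3 h, 6 h unless named. TMM factors gave 641, 140 and 482 genes past 2-fold higher and 981, 781 and 846 lower (64 and 584 in all 3 libraries), edgeR calls of 1528 higher and 1368 lower, and 61 higher and 59 lower in rest barcodes of 3 h against the control. The list medians turned to -0.040 for apoptosis, -0.18 for endoplasmic reticulum, -0.14 for immediate-early, -0.35 for pluripotency, -0.25 for S-phase and -0.35 for splicing, and the genes Gas5 to -0.093, Hsph1 to -0.048, Klf2 to -0.30, Nanog to -0.19 and Psmd1 to -0.084. Median-of-ratios factors gave 792, 73 and 384 higher and 880, 848 and 886 lower (37 and 595 in all 3), edgeR calls of 1501 and 1379, 89 higher and 39 lower in rest barcodes of 3 h and 61 lower in those of 6 h, medians of -0.048, -0.19, -0.15, -0.36, -0.26 and -0.36 for the same lists, and Gas5 -0.10, Hsph1 -0.057, Klf2 -0.30, Nanog -0.20 and Psmd1 -0.091. DESeq2 with the library block called 1441 higher and 1339 lower, with Gas5 at -0.10, Hsph1 -0.057, Klf2 -0.34, Nanog -0.20 and Psmd1 -0.091. With mt- genes in the total, 281 genes were past 2-fold lower in all 3 libraries.

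With the UMI minimum doubled, the high shares were 1.81, 8.06 and 3.40% and the folds of median UMIs 4.04, 3.66 and 3.86, and the difference of median genes, rest minus high, was -77 for 3 h. Halved, the control share was 5.50% and the fold 6.98. From 1000 genes, the 6 h share was 3.77% and the fold 3.99. A threshold of 15% gave shares of 2.51, 4.37 and 2.89%, folds of 6.93, 4.80 and 5.98, a gene difference of -66 for 3 h, 424 higher and 515 lower in high barcodes of 3 h and 325 and 394 in those of 6 h against the control, a pluripotency median of -0.042 and Nanog at -0.059. A threshold of 8% gave 13.2 and 8.50% for 3 h and 6 h. Without thinning the gene differences were 3500, 1699.5 and 1716, and at 300 UMIs -24, -35 and -28.

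Depth-matched rest barcodes left 40 genes higher and 37 lower for 3 h and 12 and 29 in all 3 libraries, with edgeR calls of 1147 and 371, Sox2 at 0.041 and Sparc at 0.016. Rest barcodes in the UMI range of the high ones, an alternative chosen after seeing the data, gave 448 and 163 for 3 h and 187 and 116 in all 3. Equal weight per barcode gave 101 lower in rest barcodes of 3 h. From 100 CPM, 601, 824 and 651 genes were higher (503 in all 3), edgeR called 999 higher, the apoptosis median was -1.09, and against the control there were 142 and 106 in high and 16 and 64 in rest barcodes of 3 h, and 76 and 69 and 29 and 40 of 6 h. With no filter there were 5463, 6049 and 6091 higher and 1422, 1023 and 2204 lower (2204 and 279 in all 3), 6001 edgeR calls higher, 3056 and 3873 in high and 232 and 884 in rest barcodes of 3 h, 2758 and 4082 and 684 and 708 of 6 h, and medians of 0.0071 for the integrated stress response and 0.0014 for heat shock. A pseudocount of 10 gave 19 and 81 in rest barcodes of 3 h and 42 and 60 of 6 h. In each of these the cause was not tested.

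Without the library block, that is with no replicate pairing, edgeR called 2028 higher and 622 lower. Leaving out each library in turn gave 2034 to 2271 higher and 603 to 906 lower, and moved the fitted log2 ratio of Klf2 between -0.69, without the 3 h library, and 1.10, without the control, called in opposite directions (edgeR adjusted p = 0.00709 and 0.00428), and that of Sparc between -0.49, without the 6 h library, and 0.39, without the 3 h library. Of the remaining values for single genes and lists, 67 lost and 16 gained a call. High sums of 322160 to 739899 UMIs limit genes below the 4.06 to 9.31 CPM that 3 counts give.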

Other observations

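Barcodes below the UMI minimum, down to 1/4 of it, enter none of the comparisons of the report, though those from 1/2 of it up enter the alternative with the halved minimum. Over 10% of UMIs were mitochondrial in 74 of 248 of them in the control, which is 29.8% (exact 95% binomial interval 24.2 to 36.0%), in 165 of 1425 after 3 h, which is 11.6% (9.96 to 13.4%), and in 208 of 1186 after 6 h, which is 17.5% (15.4 to 19.8%). The order of the libraries there differs from that among passing barcodes. In the free RNA barcodes, whose median of 343, 210 and 138 UMIs lies below that range, the mitochondrial share was 3.57%, 1.33% and 1.65%.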
